A study of Mus musculus with 17 samples.

Results

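The response of mouse primary neurons to a treatment labelled ADM was set against the response of such neurons to an ApoE particle, each treatment relative to its own controls. The quantity of interest is the difference of both effects, (ADM treatment minus ADM control) minus (ApoE particle minus control), which used 8 of the 17 libraries of the series and the 27937 genes listed in both count tables. The groups were ADM treatment and ADM control, and ApoE particle and control of the first particle experiment (set 1), with 2 libraries in each. All 4 groups were cultured brain neurons of C57BL/6 mice. What ADM stands for is not stated in the labels, which also give no dose, duration, animal age or vehicle for either treatment. Whether libraries of 1 group are independent cultures is unknown, so every p-value measures only the spread between these samples. Each treatment belongs to its own experiment, so a difference between treatments and a difference between cultures cannot be told apart.

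Apolipoprotein E carries cholesterol and other lipids between brain cells, and neurons take up such particles by receptor-mediated endocytosis. Cells sense sterol in the membrane of the endoplasmic reticulum: when sterol is plentiful, Insig proteins hold back the transcription factor SREBP2, and the genes of cholesterol synthesis are transcribed less. Separate programmes respond to amino acid shortage or misfolded protein, through the factor ATF4 (the integrated stress response), and to cytokines of the interleukin-6 family, through the receptor subunits that activate STAT3.

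The promoter of Hmgcs1, a classical SREBP2 target whose level was lower with both treatments, shows the kind of element through which sterols act. The sequence covers 250 bases before to 50 bases after the RefSeq start (GRCm38.p6, chr13:119690101-119690400, plus strand), and the capitals mark the sterol regulatory element TCACNCCAC, searched on both strands.
Hmgcs1: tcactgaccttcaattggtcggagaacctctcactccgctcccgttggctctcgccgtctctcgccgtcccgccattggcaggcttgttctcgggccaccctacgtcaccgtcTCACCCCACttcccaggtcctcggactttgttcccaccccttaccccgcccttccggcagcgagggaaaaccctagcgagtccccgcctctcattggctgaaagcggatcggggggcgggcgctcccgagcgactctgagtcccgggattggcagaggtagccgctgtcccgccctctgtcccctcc
These letters occurred in 1 of the 15 cholesterol synthesis genes with a promoter in the table and in 1.44% of all 27025 genes with a promoter there.

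The promoters of Asns and Chac1 show the element bound by ATF4 and its partners, because levels of both genes lay on opposite sides of their controls in the mean of each treatment. Asns lies on the minus strand (GRCm38.p6, chr6:7693160-7693459) and Chac1 on the plus strand (chr2:119350992-119351291), and the capitals mark TGATGNAA or its reverse complement.
Asns: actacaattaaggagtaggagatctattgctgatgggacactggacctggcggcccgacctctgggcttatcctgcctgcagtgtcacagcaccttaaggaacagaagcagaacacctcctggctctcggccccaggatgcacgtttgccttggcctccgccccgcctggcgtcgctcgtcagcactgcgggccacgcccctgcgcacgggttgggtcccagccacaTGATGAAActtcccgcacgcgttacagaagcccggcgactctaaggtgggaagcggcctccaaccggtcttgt
Chac1: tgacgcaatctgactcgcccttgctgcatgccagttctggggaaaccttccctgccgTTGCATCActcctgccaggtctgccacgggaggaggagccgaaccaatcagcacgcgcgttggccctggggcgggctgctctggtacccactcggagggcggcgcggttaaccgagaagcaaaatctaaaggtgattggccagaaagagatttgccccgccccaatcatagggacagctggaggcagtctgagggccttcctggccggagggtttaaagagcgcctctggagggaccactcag
The element was found in the promoters of 9 of 25 integrated stress response genes (36.0%), against 4.51% of all genes in the table. A match of letters is a description of these windows and not evidence of binding.

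Library totals ran from 14624082 to 19142353 counts. The ADM libraries varied far more than those of set 1, with a biological coefficient of variation of 0.287 in the ADM experiment and 0.082 in set 1. The fit of the difference gave both experiments 1 dispersion per gene, with a coefficient of 0.209. Its standard errors and intervals can therefore understate the spread of the ADM experiment. The DESeq2 fit of the difference, given beside edgeR below, shared 1 dispersion per gene in the same way. Its adjusted p values of the difference, and the classes that need a called difference, carry the same limit. For Car3 the standard error in edgeR was 0.447 for the difference and 0.454 for the ADM effect alone. Levels are given in CPM, a depth-corrected count that used TMM factors, and fold changes are log2 values ± 1 standard error from edgeR's quasi-likelihood test with Benjamini-Hochberg adjustment over all genes. A gene is called at an adjusted p under 0.05.

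In numbers of calls the experiments were far apart. With ADM, edgeR called 0 of 16191 genes (0%), with 979 higher (6.05%) and 447 lower (2.76%) at an unadjusted p under 0.05, while DESeq2 called 277 higher (1.71%) and 56 lower (0.346%). With the particle, edgeR called 3119 genes as risen (18.9%) and 2874 as fallen (17.4%), together 36.4% of 16475 genes. For the difference of the effects edgeR called 0 of 17292 genes (0%), with 1104 positive (6.38%) and 664 negative (3.84%) at an unadjusted p under 0.05, while DESeq2 called 197 positive (1.14%) and 40 negative (0.231%). The lowest adjusted p of the difference was 0.0531, for Dcn. edgeR therefore placed none of the 15320 genes tested in all comparisons as moving alike, in opposite directions or under 1 treatment only, and left 5698 genes (37.2%) called under the particle with their difference undecided. Where 1 library is left out below, its group keeps only 1 library, and the spread within that group is not measured. For such fits only fold changes are given in the Results, without calls. Their counts of calls are listed only in the last section, with this limit.

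DESeq2 sorted more genes. By its calls, 186 genes were higher with both treatments (1.21%), 48 were lower with both (0.313%), and 8 were higher with ADM and lower with the particle (0.0522%), while 0 were lower with ADM and higher with the particle. A further 35 genes were higher (0.228%) and 2 lower (0.0131%) under ADM only, and 35 were higher (0.228%) and 133 lower (0.868%) under the particle only, each with a called difference. DESeq2 left 4204 genes (27.44%) called under the particle and 47 (0.31%) called under ADM undecided, with no called difference. Among the 15320 genes tested in all comparisons DESeq2 called 326 with ADM and 4614 with the particle. Both calls were shared by 242 genes, which is 5.2% of the particle genes and 74.2% of the ADM genes. The latter share stands beside 4614 of all 15320 genes called with the particle. Across the 15320 genes the fold changes of the treatments correlated with a Pearson r of 0.51 and a Spearman rho of 0.46, as a description across genes, which are not independent replicates.

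**Figure D1:**
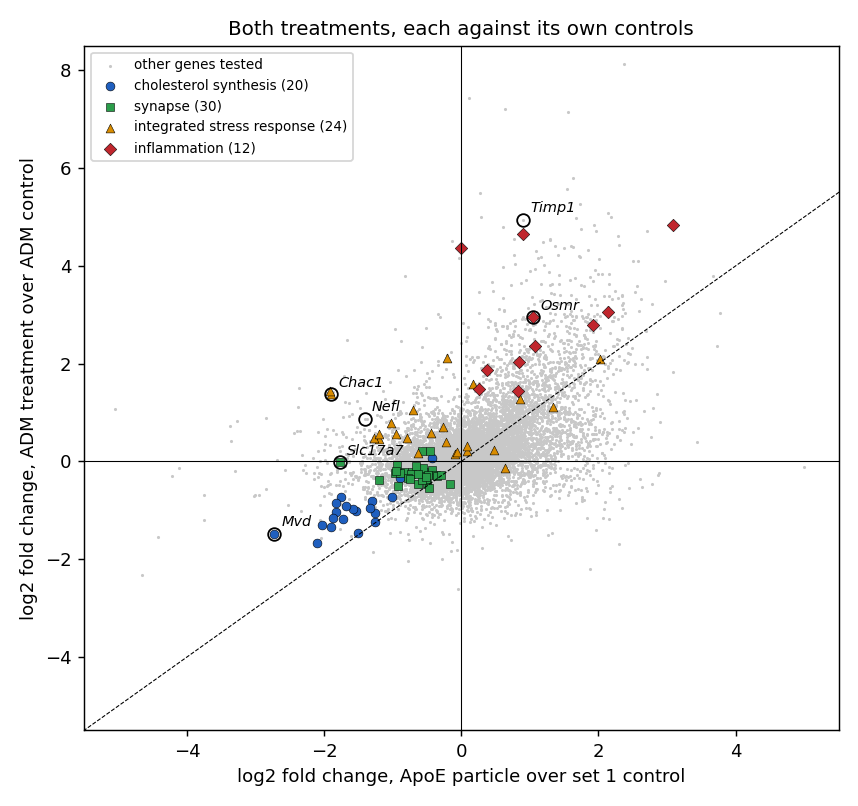
Each point is a gene tested in all comparisons, with the log2 fold change of ApoE particle over set 1 control on the horizontal axis and of ADM treatment over ADM control on the vertical axis; coloured symbols are members of 4 gene lists, circles mark labelled genes, and the dashed line marks equal change. Cholesterol synthesis genes lie at the lower left, inflammation genes lie high on the ADM axis, and 1 of the 15320 genes falls outside the axes.

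Genes of cholesterol synthesis were lower with both treatments. With the particle 19 of 20 enzymes fell, against 17.4% of all genes, with a median log2 fold change of -1.63. With ADM the median was -1.02, and the libraries of 19 of 20 enzymes lay wholly below their controls, against 20.2% of all genes. There edgeR called 0 of the 20 and DESeq2 called 17 as lower, against 0.346% of all genes in DESeq2. The difference of the effects was positive in 18 of 20 enzymes, with a median of 0.51. In edgeR 11 had an unadjusted p under 0.05, against 6.38% of all genes. By adjusted p edgeR called 0 and DESeq2 4 (Mvd, Dhcr7 and Hmgcs1 among them), against 1.14% of all genes in DESeq2. The median of all genes was 0.01 with ADM, -0.01 with the particle and 0.01 for the difference. Without ADM treatment library 1 the ADM median of the enzymes was -1.08, and without library 2 it was -0.96.

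Mvd (chromosome 8, 122433601 to 122443422, mm10, minus strand) encodes mevalonate diphosphate decarboxylase, which makes the first isoprenoid unit of the pathway. Its level was 29.6 and 32.0 CPM in ADM treatment, against 86.4 and 86.2 CPM in ADM control. It was 17.4 and 14.4 CPM with the particle, against 100.01 and 105.6 CPM in set 1 control. Both treatments lay well below their controls with no overlap, and the replicates were close together. The log2 fold change was -1.48 ± 0.14 with ADM (edgeR adjusted p = 0.396) and -2.73 ± 0.11 with the particle (edgeR adjusted p = 8.83e-07). The difference of 1.21 ± 0.17 (95% interval 0.80 to 1.61) had an adjusted p of 0.107 in edgeR and 0.000197 in DESeq2.

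Earlier in the pathway, Hmgcs1 encodes the synthase that makes HMG-CoA. It measured 859 and 969 CPM in ADM treatment, against 2086 and 2025 CPM in ADM control, and 363 and 329 CPM with the particle, against 1222 and 1242 CPM in set 1 control. Treated libraries again lay below all controls of their experiment. The difference was 0.66 ± 0.15, with an adjusted p of 0.226 in edgeR and 0.0295 in DESeq2.

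At the end of the pathway, Dhcr7 encodes the reductase that turns 7-dehydrocholesterol into cholesterol. It measured 69.0 and 69.6 CPM in ADM treatment, against 122 and 111 CPM in ADM control, and 41.6 and 43.4 CPM with the particle, against 142 and 139 CPM in set 1 control. The groups did not overlap in either experiment. The difference was 0.98 ± 0.14, with an adjusted p of 0.107 in edgeR and 0.000313 in DESeq2.

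Lss, which closes the sterol ring, had a log2 fold change of -1.47 ± 0.24 with ADM and -1.5 ± 0.18 with the particle, and the 95% interval of the difference ran from -0.83 to 0.80. Ebp, a sterol isomerase, was the exception to the pattern, at 8.68 and 9.81 CPM in ADM treatment, against 10.6 and 7.08 CPM in ADM control, and it was not called with the particle (edgeR adjusted p = 0.0994).

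**Figure D2:**
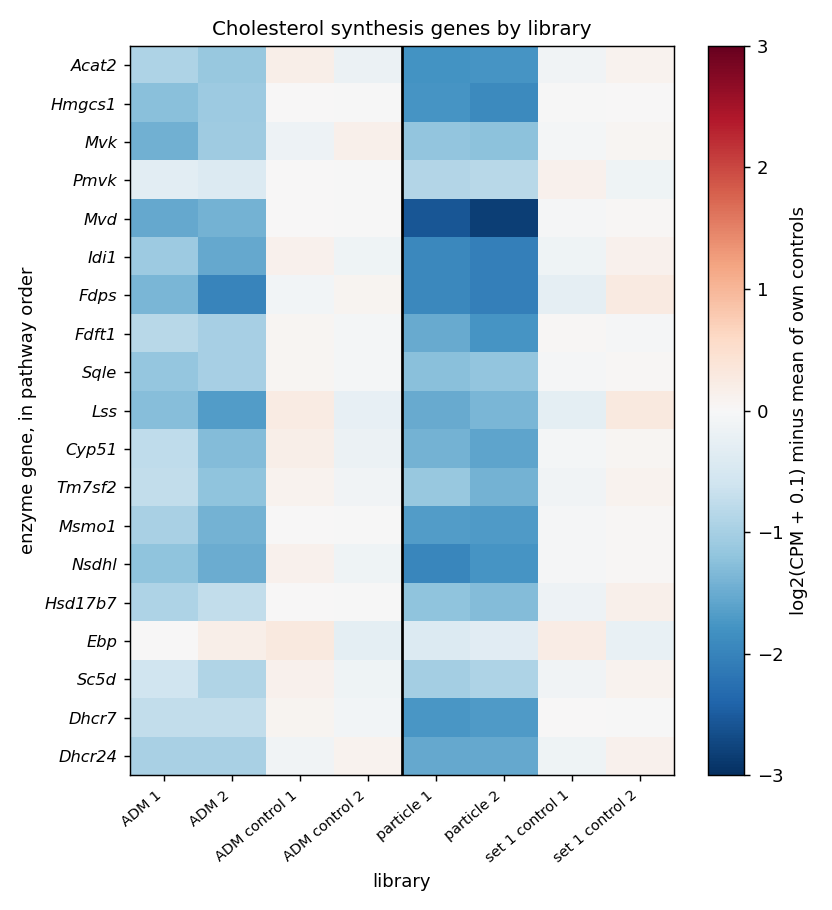
Rows are 19 of the 20 cholesterol synthesis genes in pathway order and columns the 8 libraries; colour gives log2(CPM + 0.1) minus the mean of the controls of the same experiment. Treated libraries are blue, meaning lower, in both experiments for all 19 but Ebp in the ADM experiment, with Mvd darkest under the particle.

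Genes of sterol sensing moved in part with the enzymes. Insig1, which holds SREBP2 back and is itself a target of it, measured 58.0 and 52.7 CPM in ADM treatment, against 129 and 94.9 CPM in ADM control. With the particle it measured 50.5 and 44.3 CPM, against 126 and 135 CPM in set 1 control. The treated libraries lay below the controls in both experiments, with a log2 fold change of -1.01 ± 0.20 with ADM and a fall of 1.5 with the particle. Srebf2, which encodes SREBP2 itself, had a log2 fold change of -0.74 ± 0.13 with ADM and fell by 0.94 on the log2 scale with the particle. The list as a whole was mixed. With the particle 4 of 12 tested members had risen (Npc1, Npc2, Scap and Srebf1), against 18.9% of all genes. Another 5 had fallen (Insig1, Mbtps2, Srebf2 and Stard4 among them), against 17.4%. With ADM edgeR called 0 of 13. DESeq2 called 4 as lower, Insig1, Srebf2 and Stard4 among them, against 0.346% of all genes in DESeq2.

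Fatty acid genes were less uniform. Fasn, the fatty acid synthase, measured 812 and 558 CPM in ADM treatment, against 747 and 768 CPM in ADM control. It fell to 379 and 386 CPM with the particle, against 714 and 813 CPM in set 1 control. The ADM libraries straddled their controls, while the particle libraries lay below theirs, and the difference was 0.85 ± 0.24 (edgeR adjusted p = 0.315). Scd1, the stearoyl-CoA desaturase, had a log2 fold change of -1.46 ± 0.18 with ADM and fell by 1.05 with the particle, with a difference of -0.46 ± 0.22 (edgeR adjusted p = 0.547). Acly, which supplies cytosolic acetyl-CoA, had a log2 fold change of -0.71 ± 0.11 with ADM and fell by 1.14 with the particle. In the whole fatty acid list 9 of 14 members fell and 1 rose with the particle, against 17.4% and 18.9% of all genes. With ADM edgeR called 0 of 13, and DESeq2 called Scd1 and Acsl3 as lower, against 0.346% of all genes in DESeq2.

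Apoe measured 219.9 and 457 CPM in ADM treatment, against 163 and 641 CPM in ADM control, which overlap. With the particle it measured 2388 and 2324 CPM, against 1579.9 and 1121 CPM in set 1 control, a rise of 0.77 ± 0.14 (edgeR adjusted p = 0.00131). The difference of the effects, -1.05 ± 0.89, had a 95% interval of -3.19 to 1.09. Among ApoE receptors, Scarb1, a lipoprotein receptor, measured 33.2 and 40.9 CPM in ADM treatment, against 31.2 and 28.2 CPM in ADM control. It fell with the particle to 32.5 and 33.5 CPM, against 50.7 and 49.98 CPM in set 1 control, and the difference was 0.93 ± 0.19 (adjusted p = 0.19 in edgeR and 0.0332 in DESeq2).

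Synapse genes fell with the particle and had smaller negative fold changes with ADM. In the synapse list 28 of 30 genes fell with the particle, against 17.4% of all genes, with a median of -0.61. For ADM edgeR called 0 of 30 (DESeq2 0), and the median was -0.27. With ADM 28 of 30 fold changes were negative, the libraries of 17 lay wholly below their controls, against 20.2% of all genes, and 7 were lower at an unadjusted p under 0.05, against 2.76% of all genes. The difference was positive in 26 of 30 genes with a median of 0.36. edgeR called 0 and DESeq2 3 (Slc17a7, Syt1 and Syp), against 1.14% of all genes in DESeq2. Summed levels of 8 defining neuron markers were 5436 and 6204 CPM in ADM treatment, against 6477 and 7365 CPM in ADM control, and 4971 and 4781 CPM with the particle, against 6653 and 6931 CPM in set 1 control. In bulk RNA, fewer neurons and less RNA of a gene per neuron cannot be told apart.

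Slc17a7 encodes the vesicular glutamate transporter of excitatory synapses. It measured 45.6 and 63.4 CPM in ADM treatment, against 44.2 and 66.2 CPM in ADM control. It fell to 46.1 and 47.5 CPM with the particle, against 162 and 149.5 CPM in set 1 control. The ADM groups overlapped almost wholly, while the set 1 controls stood apart from the other 6 libraries. The log2 fold change was -0.01 ± 0.28 with ADM and -1.77 ± 0.09 with the particle, and the difference of 1.72 ± 0.31 had an adjusted p of 0.159 in edgeR and 0.000218 in DESeq2.

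Nefl, the light chain of neurofilaments, measured 83.9 and 139.5 CPM in ADM treatment, against 64.0 and 58.6 CPM in ADM control. With the particle it measured 21.3 and 17.7 CPM, against 52.2 and 48.6 CPM in set 1 control. ADM libraries were above and particle libraries below their controls. The annotated spans of Nefl and of Nefm, on the other strand, overlap, so their reads may not be fully separate. The difference of 2.23 ± 0.33 had a 95% interval of 1.47 to 3.0 and an adjusted p of 0.115 in edgeR and 1.43e-06 in DESeq2. Scg2, a secretory granule protein induced by neuronal activity, measured 126 and 92.7 CPM in ADM treatment, against 94.0 and 84.6 CPM in ADM control. It fell to 42.7 and 42.1 CPM with the particle, against 109 and 106 CPM in set 1 control, and the difference was 1.63 ± 0.21 (edgeR adjusted p = 0.105).

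Markers of inhibitory neurons went both ways. With the particle 2 of 10 rose and 5 fell, against 18.9% and 17.4% of all genes. With ADM all 9 tested had negative fold changes (median -0.29), and 0 were called by edgeR or DESeq2. The difference was positive in 6 and negative in 4, with a median of 0.15. edgeR called 0, and DESeq2 called 2 as positive and 1 as negative, against 1.14% and 0.231% of all genes in DESeq2. Lhx6, a transcription factor of cortical interneurons, had a log2 fold change of -0.22 ± 0.21 with ADM and fell by 1.47 with the particle, a difference of 1.19 ± 0.24 (edgeR adjusted p = 0.189). The neuropeptide gene Vip, of the same list, and Slc30a3, a vesicular zinc transporter gene outside it, had larger falls with the particle but were low in the ADM experiment. Vip was at most 1.39 CPM in the 4 ADM libraries, against 7.45 and 6.79 CPM in set 1 control. Slc30a3 was at most 1.66 CPM in the 4 ADM libraries, against 9.68 and 9.50 CPM in set 1 control.

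Genes of the integrated stress response fell with the particle more often than they rose, and most were above their controls in the mean of ADM. With the particle 12 of 24 tested genes fell, against 17.4% of all genes, and 5 rose, against 18.9%, with a median of -0.24. With ADM 24 of 25 fold changes were positive with a median of 0.57. edgeR called 0, and DESeq2 called Nupr1 and Sesn2 as higher, against 1.71% of all genes in DESeq2. The libraries of 7 of 25 lay wholly above their controls, against 20.3% of all genes. The difference was positive in 22 of 25 genes with a median of 0.99. At an unadjusted p under 0.05 in edgeR 13 were positive and 1 negative, against 6.38% and 3.84% of all genes. By adjusted p edgeR called 0 and DESeq2 6 (Atf4, Slc7a1, Slc7a5, Asns, Chac1 and Mthfd2), against 1.14% of all genes called as positive by DESeq2. ADM treatment library 1 carried much of this: without it the ADM median was 0.01 and that of the difference 0.55. Without library 2 the medians were 0.92 and 1.33.

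Atf4 encodes the central transcription factor of the response. It measured 255 and 150.3 CPM in ADM treatment, against 155 and 138 CPM in ADM control. The particle libraries measured 94.0 and 89.6 CPM, against 216 and 215 CPM in set 1 control. ADM library 1 was high and library 2 lay between the controls, while both particle libraries lay below the other 6 libraries. The log2 fold change was 0.47 ± 0.28 with ADM and -1.27 ± 0.09 with the particle, and the difference was 1.70 ± 0.32 (adjusted p = 0.169 in edgeR and 0.000307 in DESeq2).

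Asns, the asparagine synthetase whose promoter is shown above, measured 227 and 107 CPM in ADM treatment, against 138 and 106 CPM in ADM control, and 60.7 and 53.7 CPM with the particle, against 122 and 133 CPM in set 1 control. Chac1, which breaks down glutathione, measured 39.4 and 8.60 CPM in ADM treatment, against 11.3 and 7.18 CPM in ADM control, and 3.07 and 4.005 CPM with the particle, against 13.2 and 12.6 CPM in set 1 control. In both genes ADM library 1 was high and library 2 lay within the range of its controls. Without ADM library 1 their ADM fold changes turned negative, to -0.18 for Asns and -0.10 for Chac1. Slc7a1, a transporter of cationic amino acids, had both ADM treatment libraries above the controls, at 220.0 and 132 CPM, against 110.1 and 94.4 CPM in ADM control. It fell by 1.03 with the particle, and the difference was 1.78 ± 0.35 (edgeR adjusted p = 0.185).

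Aminoacyl-tRNA synthetases, many of which ATF4 is known to induce, behaved likewise. With the particle 13 of 20 fell and 1 rose, against 17.4% and 18.9% of all genes, with a median of -0.31. With ADM edgeR and DESeq2 called 0, and the median was 0.23. Cars, the cysteinyl-tRNA synthetase, measured 138 and 80.8 CPM in ADM treatment, against 78.7 and 73.8 CPM in ADM control, and 48.99 and 49.98 CPM with the particle, against 102 and 103 CPM in set 1 control. Its difference was 1.57 ± 0.31, with an adjusted p of 0.189 in edgeR and 0.00178 in DESeq2. Without ADM treatment library 1 the ADM median of the list was -0.08.

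Genes of the interleukin-6 family pathway and of inflammation lay above their controls with both treatments. In the inflammation list all 15 genes tested with ADM had positive fold changes with a median of 2.95. The libraries of 14 lay wholly above their controls, against 20.3% of all genes. With ADM edgeR called 0 and DESeq2 7 as higher, against 1.71% of all genes in DESeq2. With the particle 9 of 12 rose and 0 fell, against 18.9% and 17.4% of all genes, with a median of 0.88. For the difference the median was 1.44, positive in 14 of 15. edgeR called 0 and DESeq2 called Osmr and Stat3, against 1.14% of all genes in DESeq2. Without ADM treatment library 1 the ADM median of the list was 2.07, and without library 2 it was 2.61.

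The cytokine gene Lif measured 11.6 and 19.4 CPM in ADM treatment, against 1.10 and 1.39 CPM in ADM control, and 4.18 and 4.68 CPM with the particle, against 2.04 and 1.21 CPM in set 1 control. Osmr, a receptor subunit for oncostatin M, measured 30.4 and 38.0 CPM in ADM treatment, against 3.53 and 5.36 CPM in ADM control, and 46.4 and 48.7 CPM with the particle, against 23.6 and 21.4 CPM in set 1 control. Treated libraries were above the controls in both experiments, and for Osmr the ADM controls were the lowest of the 4 groups. The difference for Osmr was 1.86 ± 0.30 (adjusted p = 0.134 in edgeR and 6.65e-05 in DESeq2).

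Downstream, Stat3 measured 203 and 200.1 CPM in ADM treatment, against 44.0 and 67.2 CPM in ADM control, and 147 and 158 CPM with the particle, against 114 and 114 CPM in set 1 control. Its difference was 1.44 ± 0.26 (adjusted p = 0.157 in edgeR and 0.000349 in DESeq2). Socs3, an inhibitor that STAT3 induces, measured 28.0 and 23.98 CPM in ADM treatment, against 5.36 and 4.77 CPM in ADM control, and rose to 10.7 and 10.9 CPM with the particle, against 4.77 and 5.18 CPM in set 1 control. Junb, a transcription factor of the AP-1 family, measured 34.7 and 23.4 CPM in ADM treatment, against 5.24 and 5.68 CPM in ADM control. It measured 11.99 and 12.4 CPM with the particle, against 12.8 and 11.1 CPM in set 1 control, which overlap. The difference of 2.38 ± 0.32 had an adjusted p of 0.105 in edgeR and 4.85e-06 in DESeq2.

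**Figure D3:**
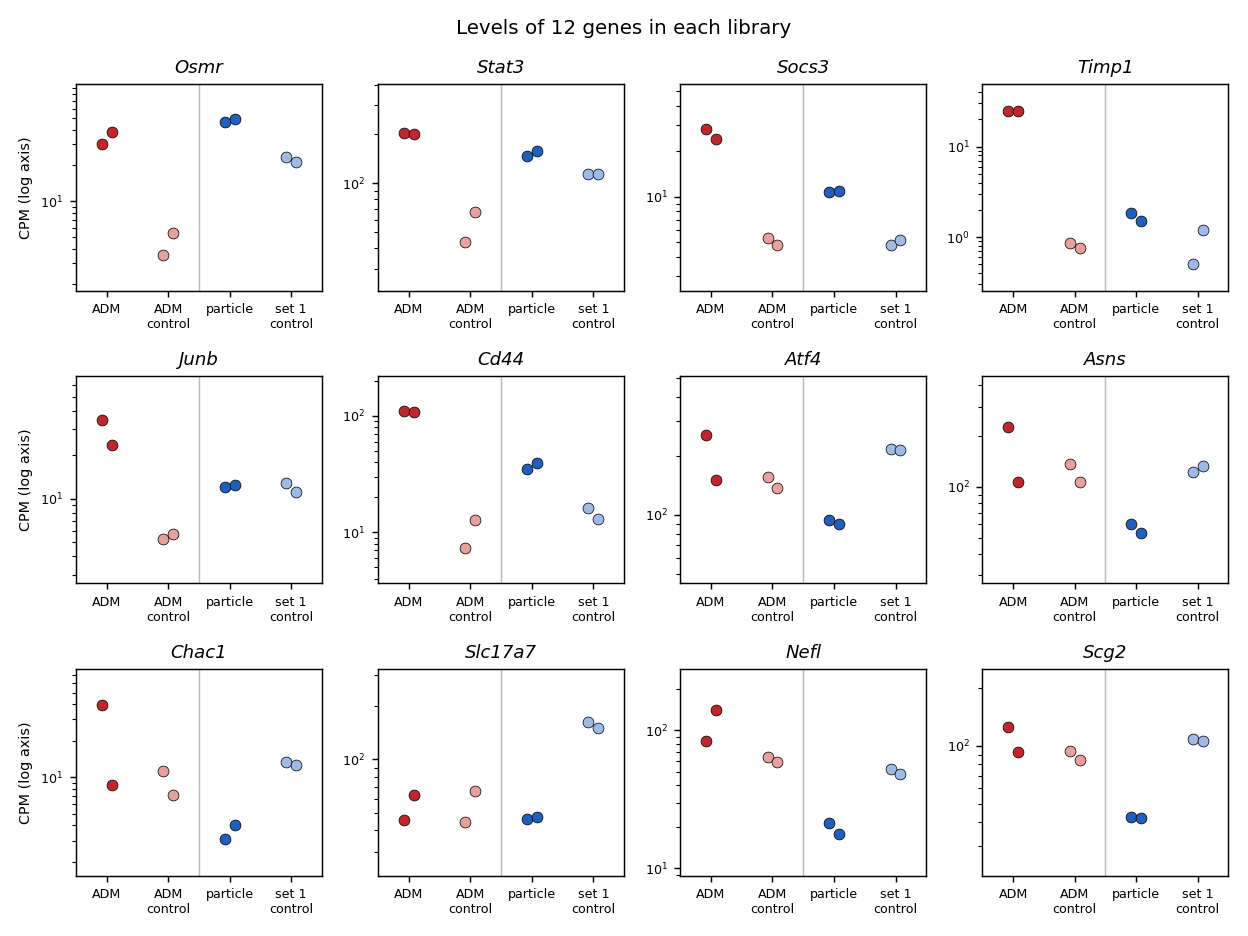
Each point is 1 library, grouped as ADM treatment, ADM control, ApoE particle and set 1 control, with the level in CPM on a log axis, for 12 genes. Osmr, Stat3, Socs3, Timp1, Junb and Cd44 are higher in both ADM treatment libraries than in ADM control, and Osmr is highest with the particle. Atf4, Asns and Chac1 are highest in ADM treatment library 1, and Slc17a7, Nefl and Scg2 are lower with the particle than in set 1 control.

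Genes induced by neuronal activity had positive ADM fold changes in 22 of 29 cases, with a median of 0.59, and the libraries of 16 lay wholly above their controls, against 20.3% of all genes. With ADM edgeR called 0 and DESeq2 7 as higher (Btg2, Egr1, Egr2, Fos, Gadd45b, Junb and Vgf), against 1.71% of all genes in DESeq2. With the particle 8 of 30 rose and 9 fell, against 18.9% and 17.4% of all genes, with a median of 0.01. For the difference the median was 0.86. edgeR called 0 and DESeq2 called Egr2, Junb, Nptx2, Scg2 and Vgf, against 1.14% of all genes in DESeq2. Vgf, a neuropeptide precursor, measured 50.4 and 80.9 CPM in ADM treatment, against 22.7 and 17.1 CPM in ADM control, and 53.0 and 46.0 CPM with the particle, against 57.8 and 59.0 CPM in set 1 control. The ADM controls were low beside the other 6 libraries, and the difference was 1.96 ± 0.33 (adjusted p = 0.152 in edgeR and 8.32e-05 in DESeq2). Fos, the classical immediate early gene, had a log2 fold change of 2.08 ± 0.39 with ADM and rose by 0.72 ± 0.15 with the particle.

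DESeq2 called a set of genes higher with ADM and not with the particle. Timp1, an inhibitor of matrix metalloproteinases (X chromosome, 20870166 to 20874735, mm10), measured 24.8 and 24.8 CPM in ADM treatment, against 0.852 and 0.751 CPM in ADM control. With the particle it measured 1.84 and 1.52 CPM, against 0.509 and 1.21 CPM in set 1 control. It had the lowest adjusted p of the ADM comparison, 0.215 in edgeR, and a difference of 3.99 ± 0.54 with an adjusted p of 0.105 in edgeR and 1.43e-06 in DESeq2. Bdkrb2, the bradykinin B2 receptor, measured 11.9995 and 16.84 CPM in ADM treatment, against 0.304 and 0.322 CPM in ADM control, and 1.11 and 1.35 CPM with the particle, against 0.891 and 1.09 CPM in set 1 control. Its difference was 5.18 ± 0.50 (adjusted p = 0.0825 in edgeR and 1.06e-07 in DESeq2).

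Other genes were higher with both treatments. Cyp1b1, a cytochrome P450 that metabolises steroids and aryl hydrocarbons, measured 128 and 92.6 CPM in ADM treatment, against 2.80 and 4.18 CPM in ADM control, and rose to 67.5 and 73.4 CPM with the particle, against 24.4 and 18.7 CPM in set 1 control. Its difference was 3.26 ± 0.34 (adjusted p = 0.0825 in edgeR and 4.06e-14 in DESeq2). Cd44, a receptor for hyaluronan, measured 109.8 and 109 CPM in ADM treatment, against 7.31 and 12.8 CPM in ADM control, and rose to 34.8 and 39.5 CPM with the particle, against 16.3 and 13.1 CPM in set 1 control. In both genes the ADM controls were the lowest of the 4 groups. Hmox1, the heme-degrading enzyme induced by oxidative stress, had a log2 fold change of 3.41 ± 0.57 with ADM and rose by 1.44 ± 0.11 with the particle (difference 1.92 ± 0.64, adjusted p = 0.393 in edgeR and 0.0339 in DESeq2).

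Among genes that DESeq2 called higher with both treatments, Myof and Cd109 ranked high by the smaller of both fold changes, below others not described here. Myof, a membrane repair protein, measured 27.9 and 54.3 CPM in ADM treatment, against 4.87 and 6.17 CPM in ADM control, and rose to 23.0 and 26.1 CPM with the particle, against 5.22 and 4.61 CPM in set 1 control. The fold changes were 2.90 ± 0.40 with ADM and 2.28 ± 0.16 with the particle, and the 95% interval of the difference was -0.46 to 1.60. Cd109, a surface protein that restrains TGF-beta signalling, had fold changes of 3.48 ± 0.77 with ADM and 2.24 ± 0.14 with the particle.

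Interferon and matrix genes were uneven between the ADM treatment libraries. In the interferon list all 22 genes tested with ADM had positive fold changes with a median of 2.81. edgeR called 0 and DESeq2 6 as higher, against 1.71% of all genes in DESeq2. With the particle 16 of 23 rose and 1 fell, against 18.9% and 17.4% of all genes, with a median of 1.30. Oasl2, an interferon-induced antiviral gene, measured 91.5 and 9.69 CPM in ADM treatment, against 0.304 and 3.38 CPM in ADM control. Leaving out ADM treatment library 1, the ADM median of the list was 1.26 and that of the difference 0.03, against 1.57 with all libraries. Without ADM control library 2 the medians were 4.56 and 3.15. The interferon-stimulated response element (ISRE), searched on both strands, was found in the promoters of 13 of 18 genes of the list (72.2%), against 3.99% of all genes in the table. Other searches found less. The E2F element was in 0 of 13 proliferation markers, against 1.24% of all genes. A STAT element, a search that was not planned, was in 2 of 15 inflammation genes (13.3%), against 9.55% of all genes.

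The extracellular matrix list leaned on the other library. With ADM its median was 2.68 in 28 genes. edgeR called 0, and DESeq2 called 9 higher and 1 lower, against 1.71% and 0.346% of all genes in DESeq2. With the particle 21 of 28 rose and 0 fell, against 18.9% and 17.4% of all genes, with a median of 1.20. Col1a1, a chain of type I collagen, measured 18.2 and 248 CPM in ADM treatment, against 3.71 and 4.24 CPM in ADM control, and 26.8 and 27.6 CPM with the particle, against 5.73 and 6.33 CPM in set 1 control. The difference was called by edgeR for 0 and by DESeq2 for Timp1, Col1a2 and Col6a2, against 1.14% of all genes called as positive by DESeq2. Without ADM treatment library 2 the median of the difference turned to -0.63, against 1.32 with all libraries, and without library 1 it was 2.05.

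The summed markers of vessels and fibroblasts include the matrix genes Col1a1 and Col1a2, so this sum is not separate from the matrix list. It was 65.01 and 1228 CPM in ADM treatment, against 23.68 and 91.58 CPM in ADM control. With the particle it was 354.4 and 391.8 CPM, against 117.6 and 84.07 CPM in set 1 control. Among these markers Cdh5 was at 0 in ADM treatment library 1, ADM control library 2 and both particle libraries, and Tagln in ADM treatment library 1. Their part in the result was not tested. Dcn, a small proteoglycan of fibroblasts and itself a member of that sum, did not follow it. It measured 11.3 and 11.2 CPM in ADM treatment, against 7.73 and 9.22 CPM in ADM control, and fell to 1.35 and 1.64 CPM with the particle, against 15.5 and 14.6 CPM in set 1 control. Its difference of 3.73 ± 0.30 (edgeR adjusted p = 0.0531) passed the threshold with median-of-ratios scaling (adjusted p = 0.0497) and with limma voom (adjusted p = 0.0253).

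**Figure D4:**
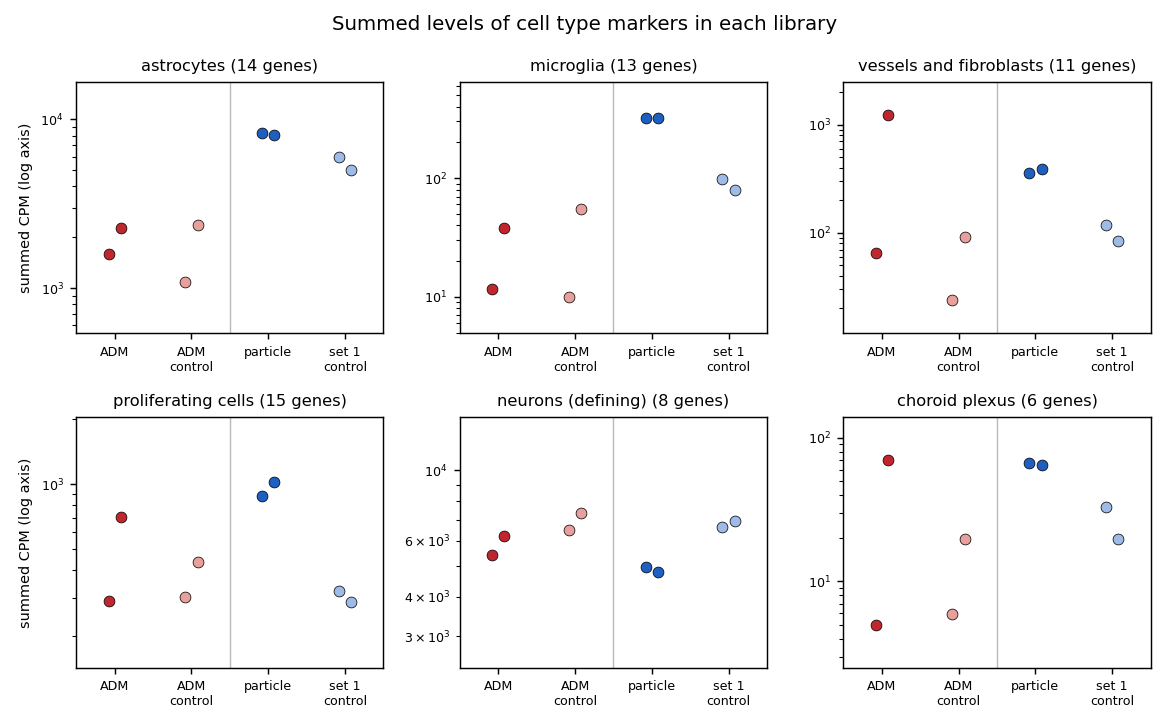
Each point is the summed level of a cell type's markers in 1 library, in CPM on a log axis, for ADM treatment, ADM control, ApoE particle and set 1 control. ADM treatment library 2 is highest for vessels and fibroblasts at 1228 CPM, and microglia markers are highest with the particle at 320.4 and 317.9 CPM.

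Markers of microglia and of dividing cells rose with the particle and were not called with ADM. With the particle 11 of 12 tested microglia markers rose, against 18.9% of all genes, with a median of 1.80. All 10 tested with ADM had negative fold changes with a median of -0.58, overlapping libraries and 0 calls by edgeR or DESeq2. Their sum was 11.73 and 37.85 CPM in ADM treatment, against 9.923 and 55.33 CPM in ADM control, and 320.4 and 317.9 CPM with the particle, against 98.03 and 79.35 CPM in set 1 control. Of the defining microglia markers, P2ry12 was at 0 in ADM treatment library 1 and ADM control library 1, and Tmem119 in ADM treatment library 1 and set 1 control library 2. The sign of the ADM median of the microglia markers rested on single libraries. It was 0.14 without ADM treatment library 1 and 1.23 without ADM control library 2, against -1.57 without ADM treatment library 2 and -1.21 without ADM control library 1. Csf1r, a growth factor receptor of microglia, rose to 16.5 and 21.2 CPM with the particle, against 5.73 and 5.12 CPM in set 1 control, and measured 1.49 and 1.64 CPM in ADM treatment, against 0.913 and 4.29 CPM in ADM control.

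All 15 proliferation markers rose with the particle, against 18.9% of all genes, with a median of 1.83. With ADM 0 were called by edgeR or DESeq2, the median was 0.60, and leaving out 1 ADM library it ran from -0.28 (without ADM treatment library 2) to 1.14 (without ADM treatment library 1 or ADM control library 2). The difference was negative in all 15, with a median of -1.15 and 0 calls by edgeR or DESeq2. At an unadjusted p under 0.05 in edgeR 2 were negative, against 3.84% of all genes. Astrocyte markers summed to 1593 and 2254 CPM in ADM treatment, against 1082 and 2349 CPM in ADM control, and 8288 and 8115 CPM with the particle, against 5959 and 5015 CPM in set 1 control. Both the astrocyte and the microglia sum were lower in every ADM experiment library than in any set 1 library.

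The 8 genes that DESeq2 called higher with ADM and lower with the particle had groups that did not overlap in either experiment. They were picked by calls on these same values, so the separation adds no support. Of all genes, 20.3% lay wholly above their controls with ADM, and 5011 of 16346 lay wholly below theirs with the particle. Klf10, a transcription factor induced by TGF-beta, measured 37.6 and 33.4 CPM in ADM treatment, against 15.5 and 11.7 CPM in ADM control, and fell to 16.5 and 15.3 CPM with the particle, against 25.5 and 23.6 CPM in set 1 control. Its difference was 2.02 ± 0.25 (adjusted p = 0.105 in edgeR and 7.99e-07 in DESeq2). Synj2, a phosphoinositide phosphatase, measured 10.8 and 17.3 CPM in ADM treatment, against 3.77 and 3.97 CPM in ADM control, and fell to 6.82 and 7.78 CPM with the particle, against 13.4 and 13.6 CPM in set 1 control. Its difference was 2.75 ± 0.37 (adjusted p = 0.105 in edgeR).

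Also opposite were a melanocortin receptor gene and an AMPA receptor auxiliary subunit gene. Mc4r measured 22.3 and 18.1 CPM in ADM treatment, against 9.68 and 7.24 CPM in ADM control, and fell to 4.86 and 5.19 CPM with the particle, against 10.6 and 8.75 CPM in set 1 control. Cacng3 measured 45.3 and 34.4 CPM in ADM treatment, against 21.9 and 18.2 CPM in ADM control, and fell to 18.3 and 20.2 CPM with the particle, against 35.8 and 33.6 CPM in set 1 control. Txnip and Arrdc4, arrestin family genes that glucose is known to induce, had differences of 2.27 ± 0.42 and 1.69 ± 0.28. Fbln2 and Nipal3 completed the 8, with differences of 2.86 ± 1.04 and 1.33 ± 0.23. With ADM some of the 8 lay close to the threshold in DESeq2. The adjusted p was 0.05 after rounding for Fbln2, 0.0417 for Nipal3, 0.0401 for Arrdc4 and 0.0348 for Cacng3. The lowest was 2.65e-05, for Txnip. In edgeR the adjusted p with ADM ran from 0.428 (Klf10) to 0.561 (Fbln2). Fbln2 was high in ADM treatment library 2 alone, at 15.2 and 85.8 CPM in ADM treatment, against 12.9 and 7.29 CPM in ADM control, and leaving out 1 library gave differences from 1.12 to 3.63.

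The particle changed some genes that DESeq2 did not call with ADM. Car3, a carbonic anhydrase, rose to 10.5 and 11.8 CPM with the particle, against 2.16 and 2.13 CPM in set 1 control, and measured 0.610 and 0.969 CPM in ADM treatment, against 1.70 and 1.39 CPM in ADM control. Its difference of -3.33 ± 0.45 had an adjusted p of 0.105 in edgeR and 0.00017 in DESeq2. Rln1, the relaxin gene, rose by 2.77 ± 0.24 with the particle and had a fold change of 0.50 ± 0.46 with ADM (difference -2.30 ± 0.55, edgeR adjusted p = 0.246). Slc2a3, the main neuronal glucose transporter, measured 113 and 133 CPM in ADM treatment, against 97.7 and 87.8 CPM in ADM control, and fell to 79.3 and 76.4 CPM with the particle, against 152 and 153 CPM in set 1 control. Its difference of 1.38 ± 0.17 had an adjusted p of 0.105 in edgeR and 7.99e-07 in DESeq2.

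Genes lower with ADM and not with the particle were few. DESeq2 named Fam84a and Pnmal2, with ADM fold changes of -0.80 ± 0.16 and -0.64 ± 0.13 in edgeR. Luzp2, a leucine zipper protein, was lower with both and more so with ADM, at 59.9 and 57.4 CPM in ADM treatment, against 156 and 161 CPM in ADM control, and 176 and 159.6 CPM with the particle, against 235 and 263 CPM in set 1 control. Its difference was -0.87 ± 0.15 (adjusted p = 0.152 in edgeR and 0.00364 in DESeq2).

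In several lists the medians of all libraries lay near 0 or near each other. Respiratory chain genes had medians of 0.03 with ADM and 0.04 with the particle, with 0 of 20 called by edgeR or DESeq2 and 0 at an unadjusted p under 0.05 in either. Lysosome and autophagy genes had a median of 0.45 with both treatments. With the particle 15 of 22 had risen and 2 fallen (Gaa and Atp6v0d1), against 18.9% and 17.4% of all genes. With ADM edgeR called 0 of 22 and DESeq2 2 as higher, against 1.71% of all genes in DESeq2. Leaving out 1 ADM library gave ADM medians from 0.09 (without ADM treatment library 2) to 0.75 (without ADM control library 2), so the equal medians rest on all libraries. Gaa, the lysosomal glucosidase, was an exception, with an ADM fold change of 0.76 ± 0.16 and a fall of 0.25 with the particle (difference 0.97 ± 0.17, adjusted p = 0.152 in edgeR and 0.00191 in DESeq2). LXR targets, which oxysterols induce, had medians of 0.25 with ADM, or 0.03 without ADM treatment library 2 and 0.46 without library 1, and 0.31 with the particle. Genes of endoplasmic reticulum stress had medians of 0.25 with ADM, or 0.09 without ADM treatment library 2 and 0.38 without ADM control library 1, and 0.29 with the particle.

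**Figure D5:**
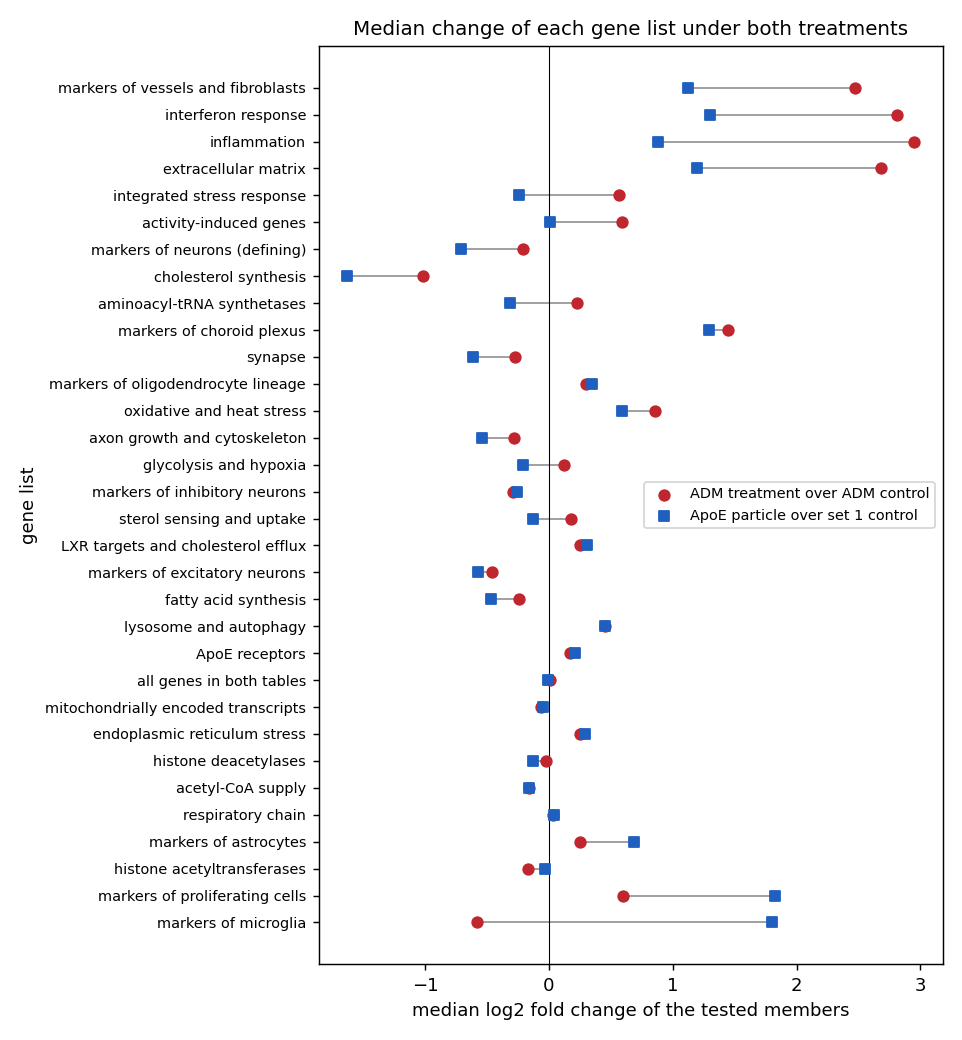
Each row is a gene list, with the median log2 fold change of its tested members for ADM treatment over ADM control (red circles) and ApoE particle over set 1 control (blue squares), ordered by the median difference of the effects. Both medians lie below 0 for cholesterol synthesis, at -1.02 and -1.63, and the microglia markers lie at -0.58 and 1.80, where the ADM median was 1.23 without ADM control library 2 and 0.14 without ADM treatment library 1.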

How the data were processed

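The deposited files hold raw counts per gene as the authors gave them, whole numbers with no normalization. Per the submitters' processing notes, Bowtie2 2.2.3, HISAT2 2.1.0 and HTSeq 0.6.0 were used with build mm10. No source here states the strand setting, so overlapping and antisense genes cannot be separated. Per the labels' protocols, 2 μg of total RNA went into each NEBNext Ultra library. Tables were joined by gene identifier, and 25 symbols stored as dates were restored in each.

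Tests used edgeR 4.0.16 in R 4.3.3 (filterByExpr, TMM, robust quasi-likelihood F test): 4 libraries for each treatment, and all 8 for the difference. The fit of the difference shares its dispersion between both experiments, and its own scaling makes it depart slightly from the difference of the separate fold changes. DESeq2 1.42.0 and limma 3.58.1 were alternatives, and the code was tested on simulated data. Promoters came from RefSeq (GRCm38.p6). The comparison, its 32 gene lists and tests were chosen with earlier results of these data known. The rule for named genes took ranked members of the called classes, up to 2 members per list by the lowest p of the difference, and Apoe. As edgeR's classes were empty, DESeq2's were ranked likewise after values were seen, and the genes outside both (Hmgcs1, Ebp, Srebf2, Scd1, Asns, Chac1, Lif, Socs3, Cyp1b1, Cd44, Hmox1, Oasl2, Col1a1, Luzp2, Vgf, Fos, Arrdc4, Nipal3 and those listed only as called members) were chosen after their values were seen. Some genes are not reported here.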

Additional observations from a re-analysis of the deposited data

How the results depend on the processing

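Counts of calls depended strongly on the test. Where 1 library was left out, its group kept only 1 library, and the spread within that group was not measured. The counts of such fits, here and for the classes below, are therefore listed as a record and not as a measure of robustness. For the difference and the classes, such fits gave calls only without an ADM treatment library. The cause was not tested, except that a fit of all 8 libraries, as used for the difference, gives both experiments 1 dispersion per gene. For ADM, where edgeR called 0 genes, it called 98 higher and 30 lower with no filter on low counts, 101 and 37 in 1 fit of all 8 libraries, and 0 with median-of-ratios or library-total scaling and without robust estimation (added after seeing the data), while DESeq2 called 277 and 56. Leaving out 1 library gave 0 to 583 higher and 0 to 58 lower, above 0 only without an ADM treatment library. For the particle the calls fell to 186 higher and 457 lower in 1 fit of all 8 libraries. Leaving out 1 library gave 2069 to 3867 higher and 1452 to 3743 lower, against 3119 and 2874, and the low ends came without particle library 2 (1825 lower without particle library 1). For the difference, edgeR called 1 gene higher (Dcn) with median-of-ratios scaling, limma voom likewise called 1, no filter gave 54 higher and 8 lower, DESeq2 gave 197 and 40, and leaving out 1 library gave 0 to 324 higher and 0 to 249 lower.

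Classes that need a called difference moved with these. With no filter 94 genes moved alike, 3 opposite, 8 under ADM only and 44 under the particle only; DESeq2 gave 234, 8, 37 and 168; limma voom gave 13 alike and 1 under the particle only, and median-of-ratios scaling gave 1 under the particle only. Leaving out 1 library gave 0 to 503 alike, 0 to 18 opposite, 0 to 57 under ADM only and 0 to 488 under the particle only.

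The fit with a replicate block called 373 genes higher and 92 lower with ADM and 336 higher and 166 lower in the difference, with 371 genes alike, 15 opposite, 37 under ADM only and 367 under the particle only. With 2 pairs in each experiment the numbers do not establish pairs: the deviations of same-numbered libraries correlated at 0.454 in the ADM experiment and 0.039 in set 1.

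Signs of fold changes near 0 turned in some settings. With library totals, the particle fold change was 0.08 for Fam84a and 0.1 for Junb and the ADM fold change of Slc17a7 was 0.01. In 1 fit of all 8 libraries the particle fold changes of Fam84a and Junb were 0.01 and 0.03, and with no filter that of Pnmal2 was -0.01. Leaving out 1 library in turn, the ADM fold change ran from -0.93 to 1.05 for Apoe, -0.18 to 0.89 for Asns, -0.1 to 2.09 for Chac1, -1.46 to 0.77 for Csf1r, -0.2 to 0.38 for Ebp, -0.44 to 0.09 for Fasn, -0.29 to 0.3 for Slc17a7, -0.62 to 0.56 for Slc30a3 and -0.65 to 0.17 for Vip. The particle fold change ran from -0.07 to 0.02 for Fam84a, -0.11 to 0.1 for Junb and -0.06 to 0.06 for Pnmal2, and the difference from -1.71 to 0.25 for Apoe and -0.32 to 0.25 for Lss. Of the genes whose fold changes were recomputed in each setting, those not listed here kept their sign; genes named only as called members of a list were not recomputed singly. With 2 libraries a group and a wide spread in the ADM experiment, a gene not called with ADM is not shown to be unchanged.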
